A study of Mus musculus with 8 samples.

Results

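Genes of the germ line and of meiosis were read in mouse embryonic stem (ES) cells given an esiRNA against Ctr9 or, as the transfection control, an esiRNA against luciferase. A list of 42 genes was taken by exact gene symbol, in 3 groups by role: 14 genes of the piRNA pathway, 17 genes of meiosis and 11 germ cell regulators and other germ cell genes. Of these, 40 had a probe set with 1 gene symbol here, out of 18193 genes read in the same way, each gene by its brightest probe set (highest mean signal). The signals of Tdrd6 and Nanos3 were not analysed here. No filter on low signals was applied, so all 40 entered the comparison.

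The data are 8 one-colour Affymetrix arrays of total RNA, 4 from ES cells with Ctr9 esiRNA and 4 from ES cells with luciferase esiRNA. All samples carry the strain label Oct4-Gip and passage 25, received their esiRNA by lipofection and were taken on day 4. An esiRNA is a mix of short interfering RNAs made by cutting 1 long double-stranded RNA with an enzyme. Ctr9 belongs to the Paf1 complex, which accompanies RNA polymerase II during elongation. Both groups therefore share the cells and the transfection and differ in the target of the esiRNA. Whether the 4 samples of each group were grown separately is not stated in the labels. The p-values therefore reflect the spread among these arrays alone, possibly technical, and the number of arrays limits the precision.

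Values are log2 probe set signals as deposited. The levels of different genes are not compared here, since probe sets differ in how they bind. Differences are Ctr9 esiRNA minus luciferase esiRNA on the log2 scale, with limma's moderated standard error (SE). A gene was called higher or lower when limma's p, adjusted by Benjamini-Hochberg over all 45037 probe sets tested, was under 0.05. In bulk RNA, fewer cells expressing a gene and less RNA per cell cannot be told apart.

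The target itself was at 10.09, 10.13, 10.13 and 10.07 with Ctr9 esiRNA, against 10.12, 10.18, 10.21 and 10.26 with luciferase esiRNA, on its brightest probe set, a difference of -0.09 (SE 0.0466, limma adjusted p = 0.209) that did not pass. The next 2 Ctr9 probe sets were lower with Ctr9 esiRNA (-0.15 and -0.18, limma adjusted p = 0.0398 and 0.0279). A less bright one was higher (0.29, limma adjusted p = 0.0228), and the least bright differed by 0.27 without passing (limma adjusted p = 0.125). The depth of the knockdown is therefore not settled by these values, and the groups are those the labels name. The luciferase arrays lay in 2 pairs on the second principal component, arrays 1 and 2 apart from 3 and 4 (8.93% of the variance), and calls of named genes that ended without a pair are given with their values without it. The ES cell label was borne by its markers: all 8 of Pou5f1, Nanog, Sox2, Esrrb, Zfp42, Tdgf1, Utf1 and Dppa5a read above the array median in both groups. Their mean level ran from 12.78 to 12.81 in the Ctr9 arrays, against 13.08 to 13.13 in the luciferase arrays. Of the 8, 4 (Pou5f1, Nanog, Esrrb and Zfp42) were lower, where 15.0% of all genes were called lower. The Pou5f1 call ended without luciferase arrays 3 and 4 (-0.18, limma adjusted p = 0.0508).

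In the germ line, piRNAs are small RNAs that guide PIWI proteins to silence transposons, and Tudor domain proteins and helicases assemble and process them in perinuclear granules. Meiosis pairs homologous chromosomes on a protein axis of cohesins and synaptonemal complex proteins, while programmed breaks are repaired by recombination. In mouse, many of these genes are silent in somatic cells. DNA methylation and a variant Polycomb complex that recognises E-box and E2F motifs take part in keeping germ cell genes off. ES cells transcribe part of the set without entering meiosis.

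The listed meiosis genes were mostly lower with Ctr9 esiRNA, and the listed piRNA genes moved both ways. Of the 40 genes, 8 were higher, 16 were lower and 16 did not pass. Of all genes read, 30.8% were called, 15.8% higher and 15.0% lower. The called share of the list was 60.0%, with 20.0% higher and 40.0% lower. The members were chosen with earlier results of these data known, so these shares describe the list and are not a test. Among meiosis genes 10 of 17 were lower and 1 was higher (median difference -0.26). Among piRNA genes 5 of 13 were higher and 2 were lower (median 0.23). The third group was mixed, with 2 of 10 higher and 4 lower (median 0.013). Genes outside the list, read below, were less one-sided for meiosis and, where called, were lower for the piRNA pathway. Of 21 further meiosis genes, 6 were lower (28.6%) and 4 higher (19.0%), with a median of -0.027. Of 15 further genes listed for the piRNA pathway, 5 were lower and none higher (median -0.13). The median over the 40 genes was -0.12, against 0.0036 over all genes. For 23 of the 40 genes no array of one group reached the range of the other, a state found for 36.6% of all genes. Dmrt1 is the called gene whose groups overlap.

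**Figure D1:**
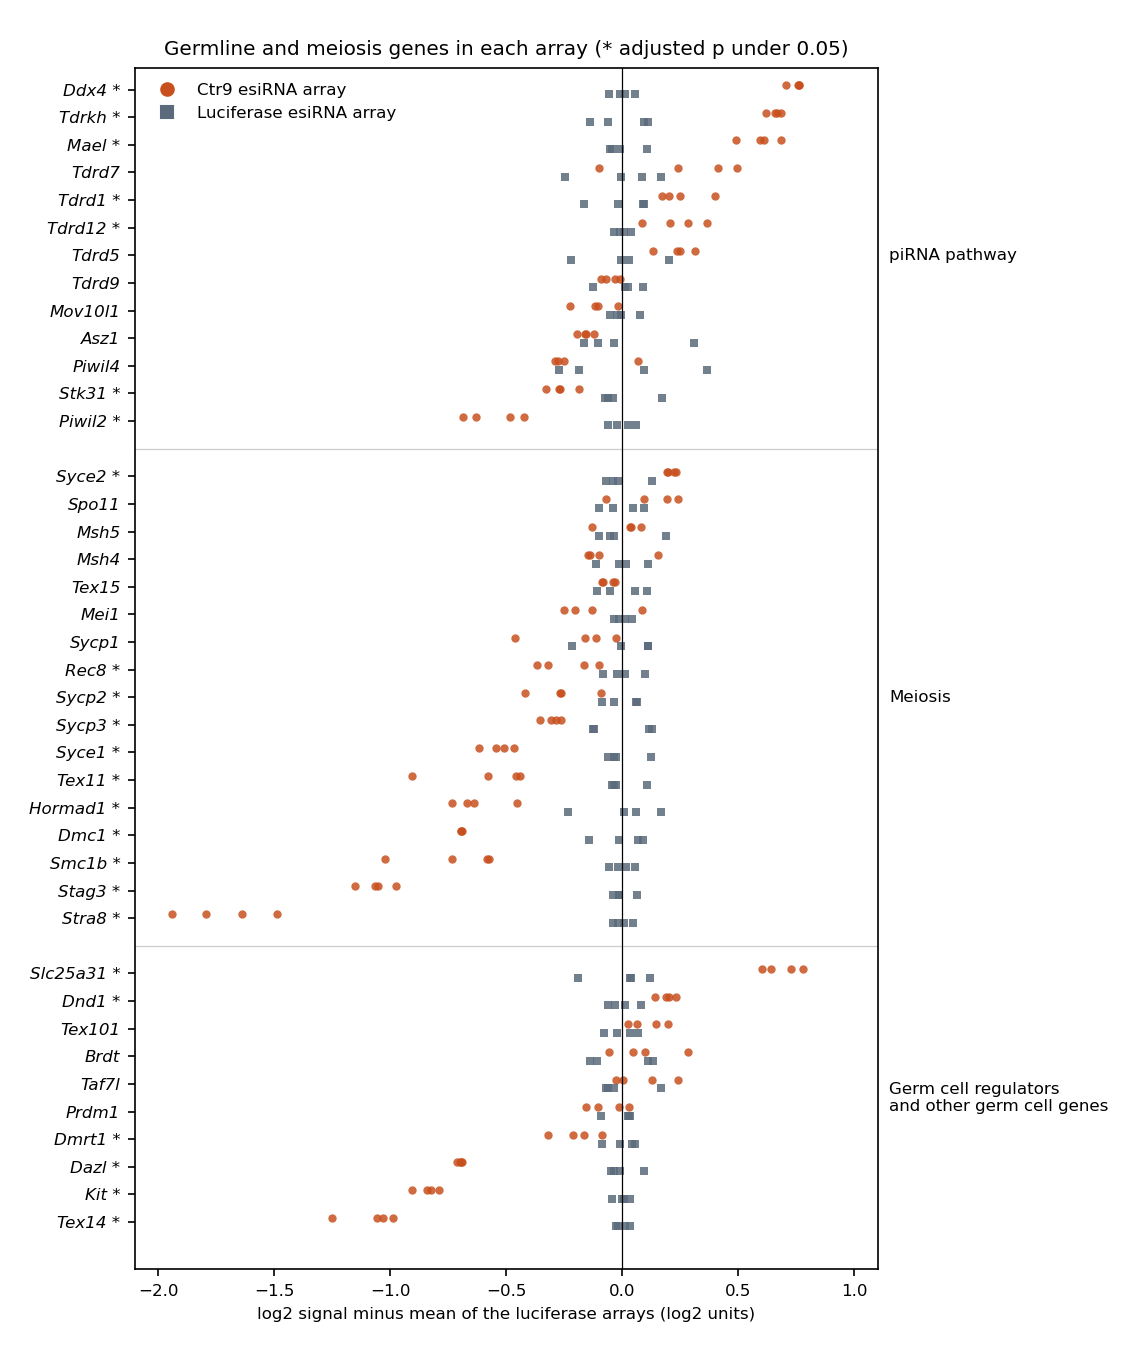
Log2 signal of each of the 40 genes in each array minus the gene's mean over the luciferase arrays (x axis, log2 units), with Ctr9 esiRNA arrays as circles above luciferase arrays as squares, and an asterisk on genes with an adjusted p under 0.05. Stra8, Stag3 and Tex14 lie farthest to the left, and Ddx4, Slc25a31, Tdrkh and Mael lie farthest to the right.

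The falls of Stra8, Tex14 and Stag3, 3 in all, reached 2-fold, where 0.330% of all genes were called and at least 2-fold lower. The promoters of these genes and of the 3 genes with the largest rises (Ddx4, Slc25a31 and Tdrkh) are shown to set the genes that moved most in either direction side by side. They were chosen after their values were seen. Each is the 300 bases from 250 before to 50 after the start that RefSeq annotates on GRCm38.p6, in the direction of the gene. Capitals mark each E-box CACGTG and each E2F-like motif TCCCGC or, on the other strand, GCGGGA.
Stra8: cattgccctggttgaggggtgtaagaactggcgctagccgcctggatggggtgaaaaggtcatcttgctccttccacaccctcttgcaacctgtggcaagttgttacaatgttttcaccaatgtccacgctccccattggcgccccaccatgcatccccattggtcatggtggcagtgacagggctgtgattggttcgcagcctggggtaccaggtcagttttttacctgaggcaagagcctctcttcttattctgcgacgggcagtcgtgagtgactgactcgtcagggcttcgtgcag
Tex14: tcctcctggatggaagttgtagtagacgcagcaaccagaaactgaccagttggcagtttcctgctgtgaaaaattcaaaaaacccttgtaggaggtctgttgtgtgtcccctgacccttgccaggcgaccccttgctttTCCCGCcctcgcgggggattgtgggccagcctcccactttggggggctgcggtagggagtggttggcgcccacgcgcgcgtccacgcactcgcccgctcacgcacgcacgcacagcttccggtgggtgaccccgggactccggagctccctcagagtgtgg
Stag3: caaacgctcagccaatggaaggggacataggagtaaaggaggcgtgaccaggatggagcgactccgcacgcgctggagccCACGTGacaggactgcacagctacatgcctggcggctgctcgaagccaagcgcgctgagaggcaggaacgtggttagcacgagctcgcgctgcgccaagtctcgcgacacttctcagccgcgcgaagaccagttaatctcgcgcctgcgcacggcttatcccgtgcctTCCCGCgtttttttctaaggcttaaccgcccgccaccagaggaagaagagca
Ddx4: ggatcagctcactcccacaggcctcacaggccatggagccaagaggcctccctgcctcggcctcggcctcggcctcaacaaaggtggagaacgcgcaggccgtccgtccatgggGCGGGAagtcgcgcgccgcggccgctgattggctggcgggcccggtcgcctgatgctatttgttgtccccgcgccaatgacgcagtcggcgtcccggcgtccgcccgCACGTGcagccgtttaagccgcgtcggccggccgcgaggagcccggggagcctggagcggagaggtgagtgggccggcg
Slc25a31: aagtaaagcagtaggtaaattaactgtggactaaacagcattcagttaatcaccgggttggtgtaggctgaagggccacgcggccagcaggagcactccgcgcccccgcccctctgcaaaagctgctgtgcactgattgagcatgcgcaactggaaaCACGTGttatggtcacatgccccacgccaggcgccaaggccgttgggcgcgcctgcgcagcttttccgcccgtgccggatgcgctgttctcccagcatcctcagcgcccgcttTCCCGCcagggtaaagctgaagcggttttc
Tdrkh: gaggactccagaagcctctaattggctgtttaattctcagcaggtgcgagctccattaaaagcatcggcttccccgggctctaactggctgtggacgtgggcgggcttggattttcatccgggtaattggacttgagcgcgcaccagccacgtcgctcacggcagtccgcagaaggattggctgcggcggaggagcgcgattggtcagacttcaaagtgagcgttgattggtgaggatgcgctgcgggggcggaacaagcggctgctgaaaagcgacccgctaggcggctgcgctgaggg
The Stra8 window is chr6:34920698-34920997, plus strand. That of Tex14 is chr11:87404815-87405114, plus strand. Stag3 is at chr5:138280259-138280558, plus strand. The Ddx4 window is chr13:112652261-112652560, minus strand. Slc25a31 is at chr3:40708621-40708920, plus strand. Tdrkh is at chr3:94412994-94413293, plus strand. Ddx4, Slc25a31 and Stag3 each hold an E-box and an E2F-like motif in these windows. Among the genes shown, the pair is thus found in 2 that rose and 1 that fell, and the split over all members is given below. Tex14 holds the E2F-like motif alone, and the windows of Stra8 and Tdrkh hold neither. In Ddx4 the E-box begins 29 bases before the start, at -29, in Slc25a31 at -93 and in Stag3 at -170.

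Promoter windows were found for 35 of the 42 genes, among them Nanos3, whose signal was not analysed and which is in none of the called groups below. An E-box was in 14 of these 35 (40.0%), against 10.3% of 14369 genes on the array with a promoter in the same table. An E2F-like motif was in 15 (42.9%), against 32.9%. Both motifs together were in 8 of 35 (22.9%), against 4.20%. A gene counts if any of its annotated starts has the motif, and 8 of the 35 have several starts, against 2648 of the 14369. The E-box was present in 5 of 7 higher genes (Mael, Tdrd1, Ddx4, Syce2 and Slc25a31), in 4 of 13 lower genes (Stk31, Sycp3, Stag3 and Hormad1) and in 5 of 14 genes that did not pass. The E2F-like motif was present in 4 of 7 higher genes, 8 of 13 lower genes and 3 of 14 that did not pass. Both motifs together were present in 4 of 7 higher genes, 3 of 13 lower genes and 1 of 14 that did not pass. For CG dinucleotides, each gene was counted by its window with the most. The median was 20 over these members (3 to 48), against 18 over all genes, whose quartiles were 7 and 27. Dazl, which is lower, has 28 CG dinucleotides and neither motif in its window. These are matches of letters in a fixed window and were given no test.

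**Figure D2:**
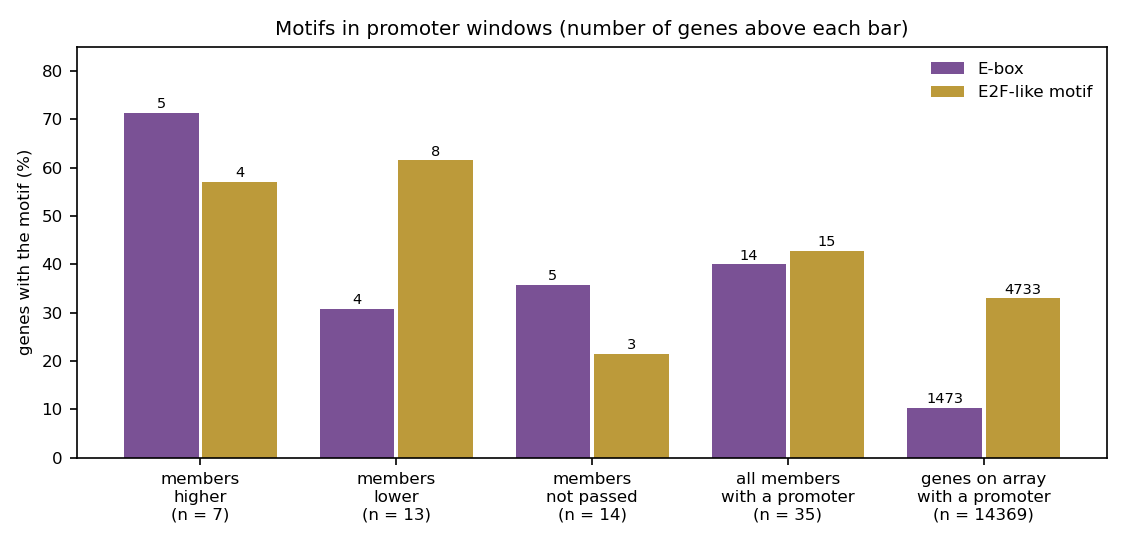
Share of genes (y axis, percent) whose promoter window holds an E-box or an E2F-like motif, for members called higher, called lower or not passed, for all members with a window and for all genes on the array with a window, with the number of genes above each bar. The E-box bar of all members stands at 40.0% and that of all genes at 10.3%.

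Meiosis begins with Stra8, a retinoic acid induced factor needed for meiotic entry, and it showed the largest change of the list. Stra8 read 8.07, 8.22, 8.52 and 8.37 in the Ctr9 arrays, against 9.97, 10.02, 10.06 and 9.99 in the luciferase arrays. The lowest luciferase value lies more than a log2 unit above the highest Ctr9 value, and the Ctr9 arrays spread more widely. The difference was -1.71 (SE 0.0866, 3.28-fold lower, limma adjusted p = 7.37e-07).

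Meiotic cohesins, the rings that hold sister chromatids and anchor the chromosome axis, were lower for all 3 genes measured. Stag3 read 8.14, 8.25, 8.32 and 8.23 with Ctr9 esiRNA, against 9.26, 9.28, 9.29 and 9.36 with luciferase esiRNA, a difference of -1.06 (SE 0.0516, limma adjusted p = 5.95e-07). Smc1b read 6.62, 7.06, 6.90 and 7.06 in the Ctr9 arrays, against 7.70, 7.62, 7.58 and 7.66 in the luciferase arrays. The first Ctr9 array is the lowest for Smc1b, and the groups stay apart by about 0.5 log2 units (-0.73, SE 0.0915, limma adjusted p = 0.000252). The kleisin Rec8 differed by only -0.24 (SE 0.0692, limma adjusted p = 0.0295), with 7.91, 8.18, 7.96 and 8.12 in the Ctr9 arrays against 8.38, 8.29, 8.26 and 8.20 in the luciferase arrays. Its call ended without Ctr9 array 1 or 3 or luciferase array 1, 2 or 3 (limma adjusted p from 0.0539 to 0.0796), and without either luciferase pair (0.188 without 1 and 2, 0.0529 without 3 and 4).

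Synaptonemal complex genes differed among themselves. Syce1, a central element protein, read 8.39, 8.50, 8.54 and 8.46 with Ctr9 esiRNA, against 8.94, 8.97, 9.13 and 8.98 with luciferase esiRNA (-0.53, SE 0.0566, limma adjusted p = 8.26e-05). Its partner in the central element, Syce2, went the other way: 11.50, 11.51, 11.53 and 11.54 in the Ctr9 arrays, against 11.44, 11.29, 11.27 and 11.24 in the luciferase arrays, a rise of 0.21 (SE 0.0527, limma adjusted p = 0.0143). Syce2 is the meiosis gene that rose, the Ctr9 values lie within 0.05 of each other, and its call ended without luciferase arrays 3 and 4 (difference 0.16, limma adjusted p = 0.122). Sycp3, of the axial element, read 9.52, 9.48, 9.50 and 9.43 with Ctr9 esiRNA, against 9.90, 9.91, 9.66 and 9.66 with luciferase esiRNA, where arrays 1 and 2 read higher than 3 and 4. The Sycp3 difference of -0.30 (SE 0.0692, limma adjusted p = 0.00914) shrank to -0.18 without luciferase arrays 1 and 2 (limma adjusted p = 0.0560). Sycp2, the partner of Sycp3, was lower by a similar size (-0.26, SE 0.0707, limma adjusted p = 0.0218) but read below the array median in both groups. The Sycp2 call ended without Ctr9 array 1 or 2 or luciferase array 1 or 4 (limma adjusted p of up to 0.0588), and without either luciferase pair (0.113 without 1 and 2, 0.0737 without 3 and 4). Sycp1, the transverse filament that joins the axes, differed by -0.19 (SE 0.102, 95% interval -0.42 to 0.04) and did not pass. Hormad1, a HORMA domain protein of unsynapsed axes, read 5.70, 5.88, 5.67 and 5.61 in the Ctr9 arrays, against 6.35, 6.51, 6.40 and 6.10 in the luciferase arrays (-0.62, SE 0.0895, limma adjusted p = 0.000578). Its Ctr9 mean lies under the array median and its luciferase mean above it.

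The recombination genes split into 2 that were lower and the others that did not pass. Dmc1, the meiosis-specific recombinase, read 7.08, 7.09 and 7.08 in 3 Ctr9 arrays (the value of array 1 is empty), against 7.84, 7.87, 7.63 and 7.76 in the luciferase arrays. The 3 Ctr9 values lie within 0.01 of each other, and the difference was -0.69 (SE 0.0645, n = 3 against 4, limma adjusted p = 6.6e-05). A second, less bright Dmc1 probe set has all 8 values, 6.99, 6.90, 6.82 and 7.002 with Ctr9 esiRNA against 7.47, 7.57, 7.73 and 7.61 with luciferase esiRNA, and differed by -0.66 (SE 0.0663, limma adjusted p = 5.47e-05). Tex11, an X-linked gene of synapsis and crossing over, read 5.97, 6.43, 6.29 and 6.41 with Ctr9 esiRNA, against 6.84, 6.98, 6.83 and 6.84 with luciferase esiRNA (-0.60, SE 0.0963, limma adjusted p = 0.00123). Array 1 is the lowest of the Ctr9 group for Tex11, as it is for Smc1b and Stra8.

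Spo11, which makes the programmed breaks, differed by 0.11 (95% interval -0.05 to 0.28), and Mei1, needed to form them, by -0.13 (-0.28 to 0.03). The MutS homologues Msh4 and Msh5, which stabilise crossover intermediates, differed by -0.06 (-0.23 to 0.11) and 0.01 (-0.16 to 0.17). A less bright Msh5 probe set differed by -0.19 (-0.38 to 0.01) and did not pass either. Tex15, needed for recombination and for piRNA-directed silencing in male germ cells, differed by -0.06 (-0.18 to 0.07). None of these 5 genes passed limma's adjusted test, and none had an unadjusted p under 0.05. Spo11, Mei1 and Msh4 read below the array median in both groups. Mei1 passed without Ctr9 array 3 (limma adjusted p = 0.0266).

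**Figure D3:**
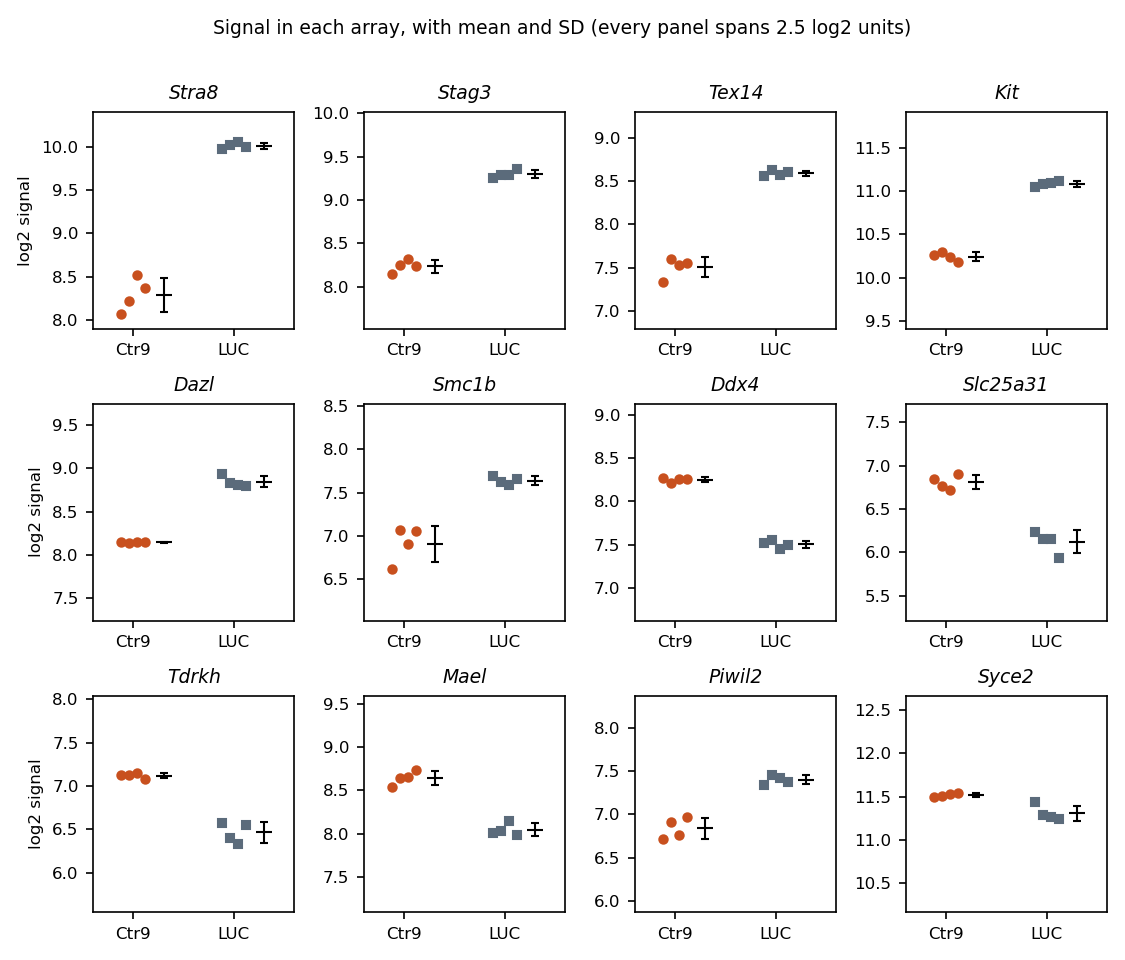
Log2 signal (y axis) of 12 genes in the 4 Ctr9 esiRNA arrays (circles, left) and the 4 luciferase esiRNA arrays (squares, right), with the mean and SD of each group beside the points. Every panel spans the same 2.5 log2 units, so the gap between groups can be compared across panels. Stra8 has the widest gap (-1.71) and Syce2 the narrowest (0.21).

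In the piRNA pathway, the effector and several of its partners changed in opposite directions. Piwil2, the PIWI protein MILI that binds piRNAs, read 6.71, 6.91, 6.77 and 6.97 in the Ctr9 arrays, against 7.34, 7.46, 7.42 and 7.37 in the luciferase arrays. No Ctr9 value reaches the luciferase range, and the difference was -0.56 (SE 0.0649, limma adjusted p = 0.000154). Piwil4, the nuclear PIWI protein MIWI2, was dim and differed by -0.19 (95% interval -0.49 to 0.11) without passing. Ddx4, the germ cell helicase Vasa, read 8.27, 8.21, 8.26 and 8.26 with Ctr9 esiRNA, against 7.52, 7.56, 7.45 and 7.50 with luciferase esiRNA. It rose by 0.75 (SE 0.0444, 1.68-fold, limma adjusted p = 1.99e-06), the largest rise of the list, with a spread under 0.12 in either group. Mael, a granule protein needed for transposon silencing, read 8.54, 8.64, 8.66 and 8.73 with Ctr9 esiRNA, against 8.004, 8.04, 8.15 and 7.99 with luciferase esiRNA (0.60, SE 0.0575, limma adjusted p = 4.37e-05).

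Of the Tudor domain genes, Tdrkh, which tethers PIWI proteins at mitochondria while piRNA ends are trimmed, rose most. Tdrkh read 7.13, 7.12, 7.15 and 7.08 in the Ctr9 arrays, against 6.57, 6.40, 6.33 and 6.56 in the luciferase arrays (0.66, SE 0.0619, limma adjusted p = 3.77e-05). Tdrd12, which takes part in making secondary piRNAs, read 8.96, 9.08, 9.24 and 9.16 with Ctr9 esiRNA, against 8.84, 8.91, 8.87 and 8.88 with luciferase esiRNA, a small rise of 0.23 (SE 0.0621, limma adjusted p = 0.0191). Tdrd1, a scaffold for MILI, rose by 0.26 (SE 0.0727, limma adjusted p = 0.0269) at signals below the array median. The Tdrd12 call ended without Ctr9 array 4 or luciferase array 1 (limma adjusted p = 0.0539 and 0.0502), and that of Tdrd1 without Ctr9 array 2 or 3 or luciferase array 1 or 3 (0.0558 to 0.0709). Both ended without either luciferase pair (0.0942 for Tdrd1 and 0.0893 for Tdrd12 without 1 and 2, 0.0670 and 0.0941 without 3 and 4). Without luciferase array 1 the count of higher piRNA genes was therefore 3, those still called being Ddx4, Tdrkh and Mael. Tdrd5 (0.23, 95% interval 0.05 to 0.42), Tdrd7 (0.26, -0.03 to 0.55) and the helicase gene Tdrd9 (-0.05, -0.17 to 0.07) did not pass, nor did a less bright Tdrd7 probe set (-0.06) of the opposite sign. Tdrd5 passed without luciferase array 4 (limma adjusted p = 0.0184) or arrays 3 and 4 (0.0204), and Tdrd7 without Ctr9 array 3 (0.0265).

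Stk31, a germ cell protein with a Tudor and a kinase-like domain, read 6.97, 6.97, 6.91 and 7.05 in the Ctr9 arrays, against 7.17, 7.41, 7.20 and 7.18 in the luciferase arrays (-0.26, SE 0.0638, limma adjusted p = 0.0119). Its other probe set was lower too (-0.37, SE 0.0618, limma adjusted p = 0.00157). Asz1, a mitochondrial scaffold of the pathway, differed by -0.16 (SE 0.0919) on its brightest probe set and did not pass. The less bright one, below the array median, was lower (-0.41, SE 0.0552, limma adjusted p = 0.000395), and so was the mean of the pair (-0.28, limma adjusted p = 0.00607). Mov10l1, the helicase that starts piRNA processing, differed by -0.12 (95% interval -0.24 to 0.01) and did not pass.

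Among the regulators, Kit and Dazl were lower with small spreads. Kit, the receptor for stem cell factor on primordial germ cells and spermatogonia, read 10.26, 10.29, 10.24 and 10.18 in the Ctr9 arrays, against 11.04, 11.08, 11.09 and 11.12 in the luciferase arrays (-0.84, SE 0.0455, 1.79-fold lower, limma adjusted p = 1.13e-06). Its second probe set gave -0.93 (SE 0.0575). Dazl, an RNA-binding protein that licenses germ cells for meiosis, read 8.15, 8.13, 8.15 and 8.14 with Ctr9 esiRNA, against 8.94, 8.83, 8.81 and 8.80 with luciferase esiRNA. The Ctr9 values of Dazl lie within 0.03 of each other, and the difference was -0.70 (SE 0.0466, limma adjusted p = 4.03e-06) with -0.67 (SE 0.0643) on the second probe set. Tex14, which keeps the bridges between dividing germ cells open, read 7.34, 7.60, 7.53 and 7.56 with Ctr9 esiRNA, against 8.56, 8.62, 8.57 and 8.60 with luciferase esiRNA (-1.08, SE 0.0609, limma adjusted p = 1.4e-06). Array 1 is again the lowest of the Ctr9 group.

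Slc25a31, the ADP/ATP carrier of the testis, rose, as did Dnd1 among the genes of its group. Slc25a31 read 6.85, 6.76, 6.72 and 6.90 in the Ctr9 arrays, against 6.24, 6.15, 6.16 and 5.93 in the luciferase arrays (0.69, SE 0.0715, 1.61-fold, limma adjusted p = 7.37e-05). Dnd1, an RNA-binding protein needed for the survival of primordial germ cells, was higher by 0.19 (SE 0.0481, limma adjusted p = 0.0155), with 8.43, 8.48, 8.52 and 8.49 in the Ctr9 arrays against 8.26, 8.37, 8.30 and 8.23 in the luciferase arrays. The Dnd1 call ended without luciferase arrays 3 and 4 (limma adjusted p = 0.0990). Dmrt1, a transcription factor of germ and Sertoli cells, was lower by a similar size (-0.20, SE 0.0599, limma adjusted p = 0.0364). Dmrt1 read 8.01, 8.24, 8.16 and 8.11 in the Ctr9 arrays, against 8.32, 8.38, 8.37 and 8.24 in the luciferase arrays. Its groups overlap at 1 array each, and the call ended without any 1 of Ctr9 arrays 1, 3 and 4 or luciferase arrays 1, 2 and 3 (0.0603 to 0.0889), without luciferase arrays 1 and 2 (0.174) or 3 and 4 (0.0805), and under cyclic loess (0.0525).

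Prdm1, which specifies primordial germ cells, read 7.90 ± 0.0836 with Ctr9 esiRNA and 7.96 ± 0.0599 with luciferase esiRNA (SD, n = 4 each) and did not pass (-0.06, 95% interval -0.19 to 0.06). Taf7l, a germ cell subunit of the general transcription machinery, differed by 0.09 (-0.08 to 0.26), and Tex101, a surface protein of germ cells, by 0.11 (-0.02 to 0.23). Neither passed, and none of these intervals reaches 0.3 log2 units in either direction. Brdt, a testis bromodomain protein, had 3 probe sets, all below the array median. The brightest differed by 0.09 (SE 0.0872) without passing, and another was lower (-0.33, SE 0.0956, limma adjusted p = 0.0305), so no direction is given for Brdt.

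Other genes of the same or related function were read from lists that do not share genes with the 42. The piRNA list includes Tdrd3, Ddx39a and Ddx25, whose part in the pathway was not checked here. Of 15 further genes listed for the piRNA pathway, 5 were lower by limma's adjusted p and none was higher (median difference -0.13). The called share, 33.3%, was near the 30.8% of all genes (15.8% higher, 15.0% lower). At an unadjusted limma p under 0.05, 8 were lower, Ddx39a among them, and none was higher. The PIWI partner Gtsf1 (-0.76, SE 0.0575), the Tudor protein Rnf17 (-0.45, SE 0.0475), the mitochondrial Pld6 (-0.32, SE 0.057) and the trimming enzyme Pnldc1 (-0.24, SE 0.06) had the smallest adjusted p. The Pnldc1 call ended without luciferase arrays 3 and 4 (limma adjusted p = 0.117). Of 21 further meiosis genes, 6 were lower and 4 higher (median -0.027). Their called share was 47.6%, against 30.8% of all genes, with 28.6% lower and 19.0% higher. Majin, which attaches telomeres to the nuclear envelope, was lower (-0.93, SE 0.084), as were the single-strand binding protein gene Meiob (-0.88, SE 0.111, below the array median in both groups), the mismatch repair gene Mlh3 (-0.45, SE 0.0559) and the cohesin protector Sgo2a (-0.30, SE 0.048).

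Of 21 further regulators of germ cells, 5 were higher and 6 lower (median -0.067), a called share of 52.4%, against 30.8% of all genes. Gfra1, the receptor for GDNF on spermatogonial stem cells, rose by 1.39 (SE 0.073, 2.63-fold), with 8.10, 8.30, 8.11 and 8.08 in the Ctr9 arrays against 6.69, 6.90, 6.80 and 6.63 in the luciferase arrays. That is larger than any rise among the 40 genes measured. Prdm14, which specifies primordial germ cells and maintains ES cells, was lower (-0.81, SE 0.0503), as was Tcl1 (-0.97, SE 0.0507). Lin28a, which blocks let-7 maturation, rose (0.79, SE 0.0543). Dppa3 was higher by 0.21 (SE 0.0607, limma adjusted p = 0.0265), a call that ended without any 1 of 6 arrays (Ctr9 2, 3 or 4, luciferase 1, 2 or 3; limma adjusted p from 0.0501 to 0.0670) and without either luciferase pair (0.139 without 1 and 2, 0.0913 without 3 and 4). Tfap2c did not pass (-0.13, SE 0.0879), although the mean of its probe sets did (-0.33, limma adjusted p = 0.000767).

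Repressors of germ cell genes were called in both directions, 6 of 18 higher and 4 lower (median 0.050). Their called share was 55.6%, against 30.8% of all genes. The de novo DNA methyltransferase genes Dnmt3b (1.52, SE 0.0522, 2.86-fold) and Dnmt3a (0.52, SE 0.0584) rose, as did the histone methyltransferase genes Ehmt2 (0.27, SE 0.0538) and Ehmt1 (0.19, SE 0.0424). Dnmt1 (-0.20, SE 0.0458) and Kdm5c (-0.19, SE 0.0537) were lower, and Uhrf1 (-0.002, SE 0.0516) did not pass. Dnmt1, Kdm5c and Uhrf1 were not recomputed without single arrays or pairs. Of the variant Polycomb complex that reads E-boxes and E2F motifs, E2f6 was higher on its brightest probe set (0.22, SE 0.0504), and Mga (-0.20, SE 0.0604) and L3mbtl2 (-0.18, SE 0.0509) were lower. Tfdp1, also among the 18 repressor genes, was higher (0.17, SE 0.0469, limma adjusted p = 0.0260). Tfdp1 was not recomputed without single arrays or pairs either. The call of E2f6 ended with the mean of its probe sets (0.039) and without luciferase arrays 3 and 4 (limma adjusted p = 0.0575). Those of Mga and L3mbtl2 each ended without any 1 of 5 arrays: Ctr9 1 or 2 or luciferase 2, 3 or 4 for Mga (0.0716 to 0.0875) and Ctr9 1, 2 or 4 or luciferase 3 or 4 for L3mbtl2 (0.0561 to 0.0676). Without luciferase arrays 3 and 4 the limma adjusted p was 0.190 for Mga and 0.167 for L3mbtl2, and without arrays 1 and 2 it was 0.0568 for Mga. Max (0.04, SE 0.0497) and Pcgf6 (0.05, SE 0.0496) did not pass.

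Retinoic acid response genes, listed because Stra8 is one, went both ways, with 3 of 8 higher and 2 lower (median -0.043). The called share of this list was 62.5%, against 30.8% of all genes. Cyp26a1, which degrades retinoic acid, read 7.66, 7.55, 7.62 and 7.49 in the Ctr9 arrays, against 6.65, 6.45, 6.78 and 6.73 in the luciferase arrays, a rise of 0.93 (SE 0.0738). The binding protein gene Crabp2 rose (0.42, SE 0.0503), while Crabp1 (-0.43, SE 0.0519) and the receptor gene Rarg (-0.53, SE 0.0479) were lower. Stra8 differed in the direction opposite to that of Cyp26a1.

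**Figure D4:**
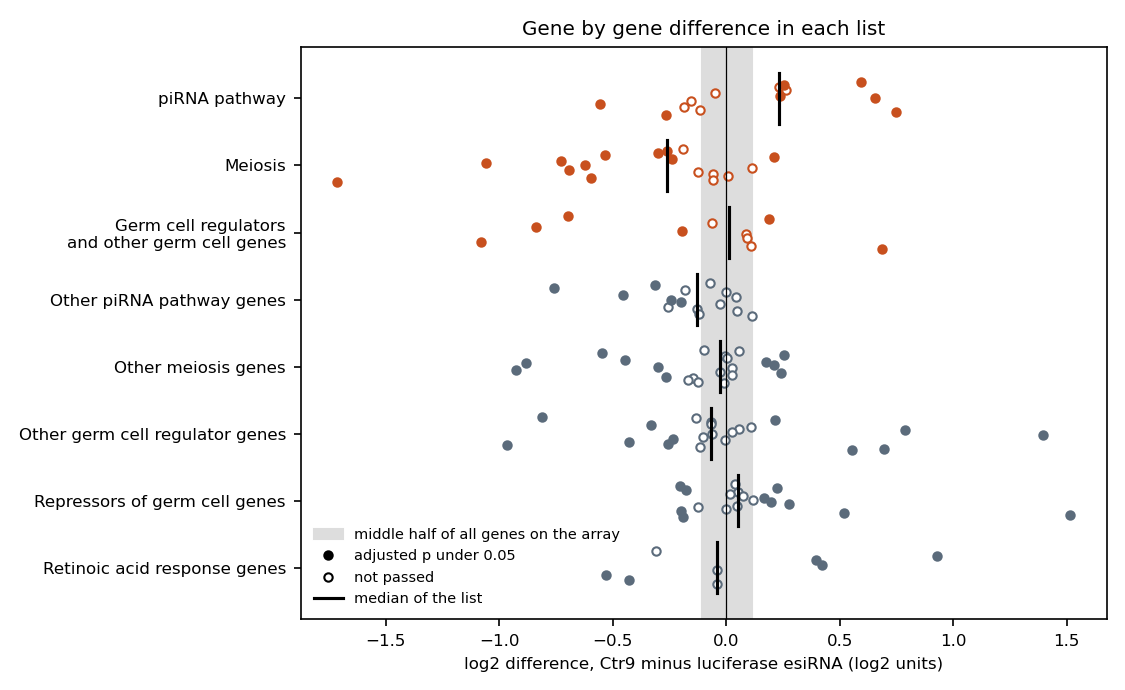
Log2 difference of each gene, Ctr9 minus luciferase esiRNA (x axis, log2 units), in the 3 groups of the list (orange) and in 5 related lists (grey), with filled points for an adjusted p under 0.05, open points for genes that did not pass, a bar at each list's median and a band between the quartiles of all genes on the array. The meiosis median lies at -0.26 and the piRNA median at 0.23.

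Markers of other cells were read beside these results. For comparison, 15.8% of all genes were called higher and 15.0% lower. Of 10 fibroblast markers, listed for feeder cells, 4 were higher (Col1a2, Dcn, Twist1 and Mmp2) and the mean level of all 10 ran from 5.72 to 5.74 in the Ctr9 arrays, against 5.49 to 5.58 in the luciferase arrays. The Col1a2 call ended without Ctr9 array 1 or 4 or luciferase array 1, 2 or 3 (limma adjusted p from 0.0509 to 0.0878) and without either luciferase pair (0.209 without 1 and 2, 0.0534 without 3 and 4). Col1a1, Col3a1, Lum and Postn read below the array median in both groups. Of 7 markers of gonadal somatic cells none passed limma's adjusted test (1 had an unadjusted p under 0.05), with mean levels of 5.79 to 5.87 in the Ctr9 arrays, against 5.78 to 5.90 in the luciferase arrays. Without luciferase array 4, Sox9 and Foxl2 of this list passed as higher (0.0403 and 0.0484), and Foxl2 passed without arrays 3 and 4 (0.0360). Of the 6 trophectoderm markers 5 rose (Krt8, Krt18, Cdx2, Plac1 and Eomes), and the list had mean levels of 7.71 to 7.78 in the Ctr9 arrays against 6.29 to 6.43 in the luciferase arrays. The Eomes call ended without any 1 of 6 arrays (Ctr9 1, 2 or 4, luciferase 1, 3 or 4; limma adjusted p from 0.0508 to 0.0739) and without luciferase arrays 3 and 4 (0.205). Tcstv1, Tcstv3 and Usp17la, the 3 measured markers of 2-cell-like cells, were all higher, at 7.53 to 7.71 in the Ctr9 arrays against 7.11 to 7.23 in the luciferase arrays. Of 5 primitive endoderm markers 1, Dab2, was higher. The part of these shifts and of the fall in ES cell markers in the germ line results was not tested.

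**Figure D5:**
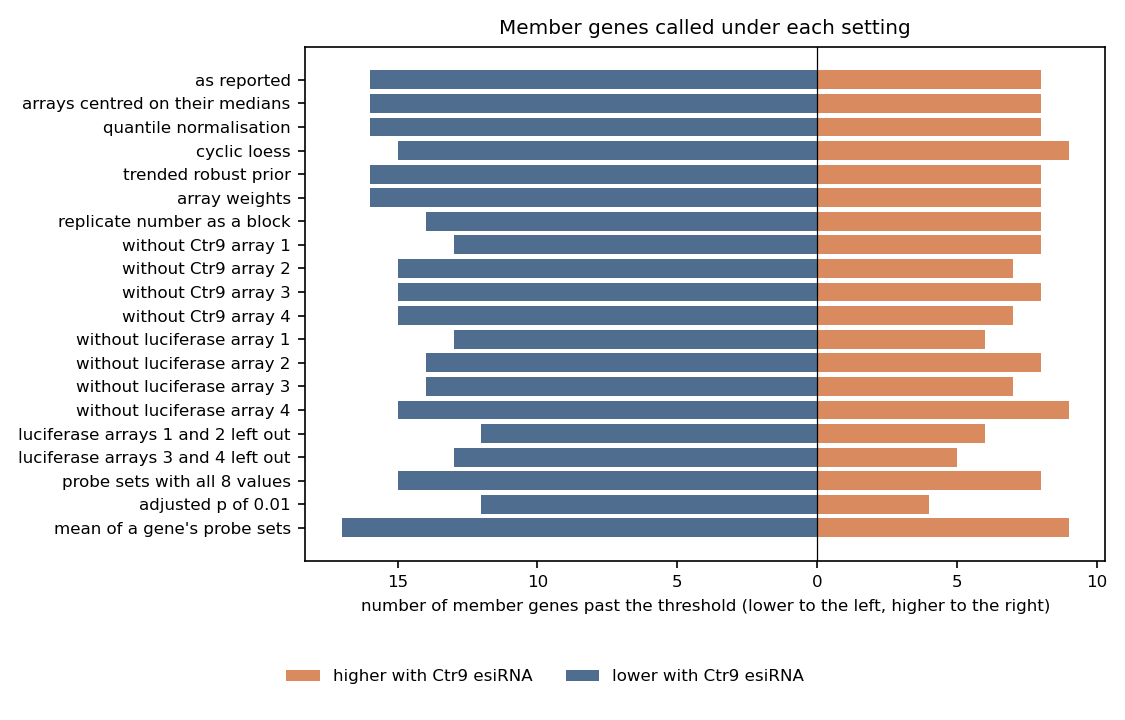
Number of the 40 genes called lower (bars to the left) and higher (bars to the right) with Ctr9 esiRNA, as reported and under 19 other settings; the setting limited to probe sets above the median signal, which leaves out 9 of the 40 genes, is not drawn. Lower genes outnumber higher ones in every setting drawn.

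The balance of the list held under the settings tried. Of the 24 called genes, 15 stayed past the threshold in the same direction under each of the 20 alternatives in which they were tested: Ddx4, Mael, Tdrkh and Slc25a31 were higher, and Piwil2, Stra8, Stag3, Smc1b, Syce1, Hormad1, Dmc1, Tex11, Dazl, Kit and Tex14 were lower. Without luciferase arrays 1 and 2 there were 6 higher and 12 lower genes, and without arrays 3 and 4 there were 5 and 13.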

How the data were processed

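The table the authors deposited holds log2 signals per probe set for 8 Affymetrix arrays. GCOS 1.4 and RMA are named in the submitters' processing notes with no settings. RMA equalises the arrays' distributions and compresses differences of low signals. Of 45101 probe sets, 64 manufacturer's controls were left out. Among the 45037 tested, 34945 have 1 symbol, 932 several and 9160 none here; through Entrez identifiers, 34741 took their current symbol (RefSeq, GRCm38.p6). Empty values (456, at most 1 per probe set) were left empty in the fit.

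Groups were compared with limma 3.58.1 in R 4.3.3 (lmFit, eBayes), Benjamini-Hochberg adjusted over all probe sets, and the fit was tested on simulated data. Named are all members, Ctr9, up to 4 genes per related list with the smallest adjusted p, and a fixed set of regulators, repressors and markers. Dnmt1, Kdm5c, Uhrf1 and Tfdp1 are named outside this rule and are not in the checks of alternatives or of single values. Members, lists and alternatives were chosen with earlier results of these data known. The signals of listed genes with no probe set of 1 symbol were not analysed here. RefSeq promoters (GRCm38.p6) matched 35 members. Figures used matplotlib 3.10.9.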

Additional observations from a re-analysis of the deposited data

Results flagged for a closer look

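In a group of 4 arrays, 1 value was set apart from the other 3 by more than Dixon's 95% criterion in 19 of 226 groups of named genes and markers, where chance gives about 1 in 20. Among the members these were Ddx4 in Ctr9 array 2 (8.21, the others 8.26 to 8.27), Piwil4 in Ctr9 array 1 (4.27, the others 3.91 to 3.95), Msh4 in Ctr9 array 1 (4.93, the others 4.63 to 4.68), Stk31 in luciferase array 2 (7.41, the others 7.17 to 7.20), Tex11 in luciferase array 2 (6.98, the others 6.83 to 6.84), Prdm1 in luciferase array 1 (7.87, the others 7.98 to 7.99) and Taf7l in luciferase array 3 (6.65, the others 6.41 to 6.45). Among the other named genes they were Meiob in Ctr9 array 1 (3.56, the others 3.85 to 3.91), Lin28a in Ctr9 array 1 (11.71, the others 11.59 to 11.61), Gfra1 in Ctr9 array 2 (8.30, the others 8.08 to 8.11), Mga in luciferase array 1 (9.64, the others 9.76 to 9.78) and E2f6 in luciferase array 4 (9.37, the others 9.45 to 9.46). Among the markers of other cells they were Col1a2 in Ctr9 array 1 (6.56, the others 6.27 to 6.31), Amh in luciferase array 3 (6.81, the others 6.67 to 6.68), Star in Ctr9 array 4 (6.36, the others 6.19 to 6.22) and in luciferase array 4 (6.32, the others 6.13 to 6.15), Eomes in luciferase array 2 (6.86, the others 6.54 to 6.59), Elf5 in luciferase array 4 (3.94, the others 4.23 to 4.27) and Plac1 in luciferase array 4 (4.95, the others 5.07 to 5.08).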

How the results depend on the processing

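Under 20 alternatives, no value past the threshold, before or after the change, turned its sign among the 40 members, 28 other named genes and 46 markers and genes picked after their values were seen. For the last 46 the alternatives were added after seeing the data; 20 of their 23 calls held under each one in which they were tested, the exceptions being Pou5f1, Col1a2 and Eomes. Of 790 member values recomputed, 737 kept their side of the threshold, 45 lost it and 8 gained it. The member count ran from 16 (adjusted p of 0.01) to 26 (probe sets averaged per gene), and from 19 to 24 when 1 array was left out. The count of called probe sets, 11209, was 7000 at an adjusted p of 0.01 and 9556 to 10135 without 1 array. The member median, -0.12, was -0.19 among probe sets above the median signal, where 31 members remain, and -0.14 to -0.080 without 1 array (lowest in size without luciferase array 2); the cause of the first was that dim members were left out. Same-numbered arrays did not deviate together (correlations of -0.077 to 0.062). Such correlations cannot exclude that same-numbered samples were handled together, which the labels do not state. With the replicate number as a block, 22 members and 9771 probe sets were called, Sycp2 and Rec8 being lost, and the median stayed at -0.12. At an adjusted p of 0.01, the higher genes were 4 and the lower ones 12. Signal limits 9 members that lie below the array median in both groups, 2 of them called (Tdrd1 and Sycp2).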

Other observations

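Further germ cell genes outside the rule for named genes were picked after their values were seen. The X-linked homeobox genes Rhox6 (0.69, SE 0.0559, limma adjusted p = 1.37e-05) and Rhox9 (0.55, SE 0.0682, limma adjusted p = 0.000224) were higher with Ctr9 esiRNA, while Rhox5 differed by -0.11 (SE 0.0501) and did not pass. Rhox6 read 8.64, 8.67, 8.84 and 8.78 in the Ctr9 arrays, against 8.09, 8.02, 8.05 and 8.003 in the luciferase arrays. Dppa2 (-0.43, SE 0.0432) and Dppa4 (-0.26, SE 0.0434), which act together in ES cells and germ cells, were both lower. Hormad2, the paralogue of Hormad1, was lower (-0.55, SE 0.1), as Hormad1 was. Sohlh2, a helix-loop-helix factor of early germ cells, was lower too (-0.33, SE 0.0494), with 9.05, 9.04, 9.05 and 9.04 in the Ctr9 arrays against 9.37, 9.45, 9.27 and 9.41 in the luciferase arrays.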
